A study of Rattus norvegicus with 8 samples.

Results

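Granins and the enzymes that process neuropeptides were followed in rat hippocampal neurons as a set of 10 genes chosen by name, out of 28909 gene symbols in the count table. The set held 6 granins (Chga, Chgb, Scg2, Scg3, Scg5 and Vgf), the prohormone convertases Pcsk1 and Pcsk2, carboxypeptidase E (Cpe) and peptidylglycine alpha-amidating monooxygenase (Pam). All 10 were present in the table and all 10 were among the 14309 genes that passed the filter of more than 20 reads in at least 2 libraries. Pcsk1 passed only through the somata, since none of its process libraries held more than 20 reads, whereas the other 9 genes exceeded 20 reads in all 8 libraries.

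Dense-core vesicles carry neuropeptides and neurotrophic factors, and they are loaded in the trans-Golgi network of the cell body before motors move them into axons and dendrites. Granins are acidic secretory proteins that aggregate there and help to form the vesicles, and several of them are themselves cut into active peptides. The convertases cut precursors at pairs of basic residues, Cpe trims the exposed basic residues from the new carboxyl ends, and Pam then amidates peptides that end in glycine. Several genes of this pathway, Vgf and Scg2 among them, are known as genes that neuronal activity induces.

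The neurons were primary hippocampal cells of embryonic Sprague-Dawley rats, plated on the upper side of porous filter inserts, so that axons and dendrites grew through the pores while cell bodies stayed above. Cultures received picrotoxin (PTX), a blocker of GABA-A receptors that raises network activity, for 48 h from day 18 to day 20 in vitro, or the ethanol vehicle alone (control). Total RNA of the upper side (somata) and of the lower side (processes) was depleted of ribosomal RNA and sequenced, with 2 libraries for each of the 4 conditions: somata control, somata PTX, processes control and processes PTX. Axons and dendrites were not separated, and the upper side also held the processes that had not crossed the filter. The labels do not say that the libraries came from separate cultures, so the p-values below measure the spread between these libraries, part of which may be technical.

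Each library held between 12290890 and 18455662 counts. Transcripts of the mitochondrial genome took 22.6% to 26.7% of the counts in somata and 68.5% to 72.5% in processes, which left 9517542 to 11227599 other counts per library in somata and 4702054 to 5491237 in processes. Most of these mitochondrial counts fell on 2 rows that are not protein genes, with 47077823 and 10315005 counts over the 8 libraries. Mt-co1, the mitochondrial protein gene with the most counts, had 1356150, so the share is mostly not messenger RNA. The 10 genes together received 14256 to 45898 counts per library. The neuronal label was borne out by 5 general neuron markers, whose summed level was 1355 to 1471 CPM (counts scaled to a library of 1e+06) in control somata and 4890 to 5153 CPM in control processes. Astrocyte RNA was also plentiful, with 6 markers summing to 3445 to 3870 CPM in control somata and 12536 to 14096 CPM in control processes, whereas the microglial markers stayed at or below 1.51 CPM in every library. Levels are given as CPM after TMM scaling, a scaling that sets the bulk of genes equal between libraries. They are not corrected for transcript length, so levels are compared between libraries and not between genes.

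The first question was how the pathway responded to PTX in each compartment. The granins Vgf and Scg2 and the amidating enzyme Pam rose in somata and again in processes, by 2.01-fold to 3.78-fold. No gene of the set fell in either compartment at an adjusted p under 0.05 in this fit, which has no term for the replicate number. Thus 3 of 10 genes were called in somata, all higher, where 3.59% of all tested genes were called (2.09% higher and 1.5% lower) by edgeR's quasi-likelihood test with Benjamini-Hochberg adjustment. In processes 3 of 10 were higher as well, against 3.74% of all tested genes called, 1.64% higher and 2.1% lower. With the replicate number as a block, Chga and Scg5 were also called lower in processes, and Pcsk1 and Pcsk2 higher in somata. The median log2 fold change of the 10 genes was 0.33 in somata and -0.003 in processes, and over all tested genes it was -0.006 and -0.01. A bulk measurement of this kind cannot tell a change in the number of cells of a type from a change in RNA per cell.

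**Figure D1:**
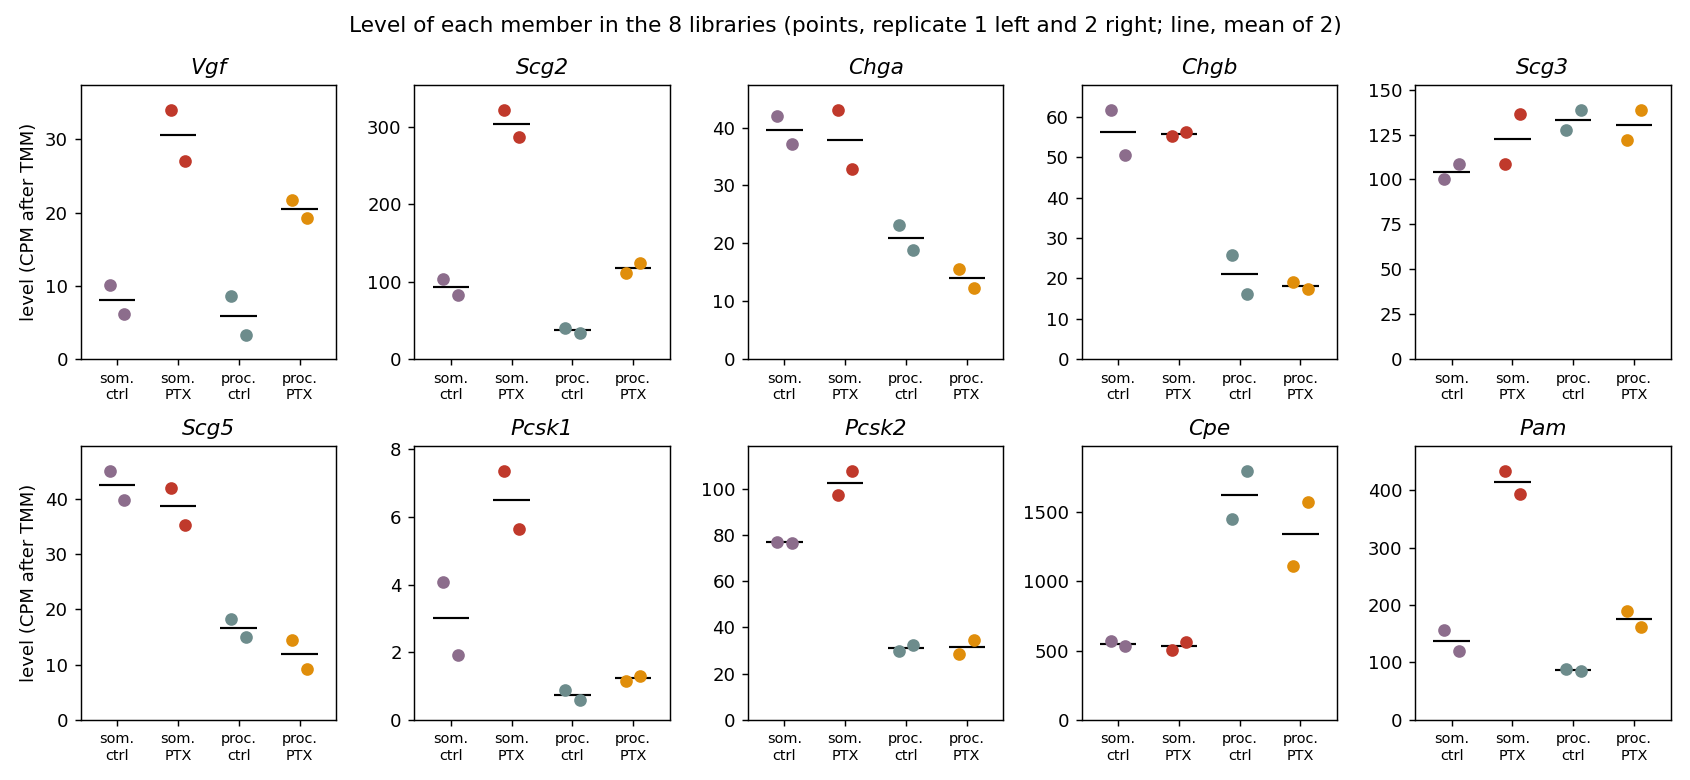
Levels of the 10 genes (CPM after TMM scaling, linear axes starting at 0) in the 8 libraries, with 1 panel per gene, points for replicates 1 and 2, and lines for the mean of the 2 libraries of each condition. Vgf, Scg2 and Pam stood higher in both PTX conditions than in the matching controls, and Cpe stood higher in all 4 process libraries than in all 4 somata libraries on this scale, a difference whose sign turned with scaling by library size alone.

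Vgf encodes a granin whose fragments act as neuropeptides. Its level was 10.1 and 6.11 CPM in control somata (replicates 1 and 2) and 34.0 and 27.0 CPM in PTX somata. In processes it was 8.59 and 3.29 CPM in control and 21.7 and 19.3 CPM after PTX, so that both PTX libraries lay above both controls in each compartment. The process values rest on few reads, with 77 and 28 reads in control and 189 and 192 after PTX. Mean levels were 8.09 ± 2.80 CPM (SD, n = 2) in control somata and 30.5 ± 4.95 in PTX somata, which is a rise of 1.92 ± 0.29 (SE) on the log2 scale (3.78-fold, adjusted p = 0.0055, quasi-likelihood test). In processes the rise was 1.77 ± 0.35 (3.42-fold, adjusted p = 0.0221). Ordered by fold change from the top, Vgf held rank 43 of the tested genes in somata and rank 59 in processes. The call in somata was lost without replicate 2 of control somata (1.59, adjusted p = 0.0599). In processes the value was 2.64 without replicate 1 of control processes, and the call was lost without replicate 2 of control processes (1.25, adjusted p = 0.0853), without replicate 1 of PTX processes (1.69, adjusted p = 0.108) and without replicate 2 of PTX processes (1.86, adjusted p = 0.082).

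Scg2, secretogranin II, is the precursor of secretoneurin. In somata it was measured at 104 and 82.3 CPM in control and at 322 and 286 CPM after PTX. Processes held 40.6 and 33.6 CPM in control and 112 and 124 CPM after PTX. Control and PTX libraries did not overlap in either compartment, and PTX libraries were the higher ones each time. The rise was 1.71 ± 0.14 on the log2 scale in somata (3.27-fold, adjusted p = 0.000216) and 1.67 ± 0.15 in processes (3.18-fold, adjusted p = 0.000825, both by the quasi-likelihood test). Between libraries with the same replicate number, the ratio of PTX to control was 3.10 and 3.48 in somata and 2.75 and 3.70 in processes. No omission of a library ended either call.

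Pam is the enzyme that forms the carboxy-terminal amide on many neuropeptides. Its level in somata was 156 and 120 CPM in control and 435 and 394 CPM after PTX. In processes it was 89.0 and 85.3 CPM in control and 190 and 161 CPM after PTX, again without overlap. The rise was 1.59 ± 0.15 on the log2 scale in somata (3.01-fold, adjusted p = 0.000337) and 1.01 ± 0.15 in processes (2.01-fold, adjusted p = 0.00538, quasi-likelihood test). Without replicate 1 of control processes the value in processes was 1.04 with an adjusted p of 0.0541, and no other omission ended a Pam call.

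Promoter sequences were examined because Vgf, Scg2 and Pam moved together. RefSeq promoters (assembly GRCr8, whereas the counts were made on Rnor_6.0) were available for 8 of the 10 genes, each reaching from 250 bases before to 50 bases after the annotated start. The cAMP response element, the palindrome TGACGTCA bound by the CREB family of activity-regulated factors, was found in the promoters of Vgf and Scg2, where it began 90 and 123 bases before the start. This element was present in 612 of 33469 promoters of the same length (1.83%) and in 3.25% of those of tested genes. Its core TGACG, searched on both strands and contained in the full element, occurred in 7 of the 8 promoters, Chgb being without it, and in 21.2% of all promoters (31.9% of those of tested genes). Pam held the core but not the full element. The sequences of the 250 bases before the start of the 3 genes that rose are given 5′ to 3′ on the gene's own strand, with the element or its core in capitals.
Vgf, chr12:25277021-25277270, minus strand: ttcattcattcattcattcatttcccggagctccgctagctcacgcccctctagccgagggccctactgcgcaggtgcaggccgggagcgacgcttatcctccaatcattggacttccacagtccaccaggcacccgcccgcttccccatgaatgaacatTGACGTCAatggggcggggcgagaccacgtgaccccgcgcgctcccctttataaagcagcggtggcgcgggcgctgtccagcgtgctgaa
Scg2, chr9:88256867-88257116, minus strand: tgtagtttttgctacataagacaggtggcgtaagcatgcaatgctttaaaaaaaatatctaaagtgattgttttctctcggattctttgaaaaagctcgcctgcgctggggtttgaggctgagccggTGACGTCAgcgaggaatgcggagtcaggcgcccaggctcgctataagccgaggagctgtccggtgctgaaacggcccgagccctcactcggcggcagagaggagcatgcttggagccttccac
Pam, chr9:105570118-105570367, plus strand: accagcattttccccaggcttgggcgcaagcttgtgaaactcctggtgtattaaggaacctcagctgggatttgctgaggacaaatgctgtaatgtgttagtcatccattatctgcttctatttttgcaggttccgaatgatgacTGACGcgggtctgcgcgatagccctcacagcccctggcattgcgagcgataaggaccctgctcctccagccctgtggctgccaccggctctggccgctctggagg

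The core also stood in the promoters of genes that did not pass the PTX test in either compartment without the replicate block. Stretches of 30 bases around it are shown for Scg3, Scg5, Pcsk2 and Cpe so that its neighbourhood can be compared with that in the genes that rose. In Pcsk2 the core lay on the opposite strand and reads CGTCA, as does another core in Scg5 that began at position 15 after the start and is not shown.
Scg3, chr8:85322536-85322565, minus strand: gcgctgggtcgcTGACGccatcctcacgcc
Scg5, chr3:121042785-121042814, minus strand: tgcggagggaggTGACGcaggagctatcca
Pcsk2, chr3:151333869-151333898, plus strand: ctggcgggcgcgCGTCAcccgggctggcgc
Cpe, chr16:29796522-29796551, plus strand: ccatttggctttTGACGtgggtctgagcca
The Vgf promoter also contained the E-box CACGTG (6.42% of all promoters and 9.26% of those of tested genes, searched on both strands) and the TATA sequence TATAAA (8.8% and 4.08%, searched on the gene's strand). The AP-1 sequence TGANTCA was found in none of the 8 promoters, in 7.33% of all promoters and in 4.37% of those of tested genes. A match describes these letters in this window and is not a measured binding site.

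The other 4 granins did not pass the test in either compartment in the fit without the replicate block. Chga, chromogranin A, stood at 42.0 and 37.2 CPM in control somata and 43.1 and 32.8 CPM after PTX, with overlapping libraries and a log2 fold change of -0.06 (95% interval -0.41 to 0.29). In processes its level was 23.1 and 18.8 CPM in control and 15.6 and 12.3 CPM after PTX. Both PTX process libraries thus lay below both controls, by -0.59 ± 0.19 on the log2 scale (adjusted p = 0.137, and 0.00428 with the replicate number as a block, both by the quasi-likelihood test). Scg5, which encodes the convertase 2 chaperone 7B2, showed a like pattern, with 45.1 and 39.8 CPM in control somata and 41.9 and 35.3 CPM in PTX somata. Its levels in processes were 18.2 and 15.0 CPM in control and 14.5 and 9.25 CPM after PTX, so that PTX lay lower by -0.50 ± 0.21 on the log2 scale (adjusted p = 0.267, and 0.0314 with the replicate block).

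Chgb, chromogranin B, was at 61.8 and 50.7 CPM in control somata and at 55.2 and 56.3 CPM after PTX. Its process levels were 25.8 and 16.2 CPM in control and 19.1 and 17.3 CPM after PTX, so that PTX and control libraries overlapped in both compartments. The log2 fold change was -0.01 in somata (95% interval -0.38 to 0.36) and -0.21 in processes (-0.66 to 0.23). Scg3, a granin that anchors others to the vesicle membrane, was at 100.1 and 108 CPM in control somata and at 108.5 and 137 CPM after PTX, with a log2 fold change of 0.23 (-0.06 to 0.52). In processes Scg3 stood at 128 and 139 CPM in control and at 122 and 139 CPM with PTX, which gave -0.03 (-0.32 to 0.27).

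Among the convertases, Pcsk1 was the least abundant gene of the set in reads. Its level was 4.08 and 1.92 CPM in control somata (96 and 49 reads) and 7.37 and 5.63 CPM after PTX (205 and 133 reads). Both PTX libraries lay above both controls, by 1.12 ± 0.31 on the log2 scale, which did not pass the threshold (adjusted p = 0.0777, quasi-likelihood test) and did so with the replicate block (adjusted p = 0.000237). It was called in 3 of 8 alternative settings, the study's likelihood ratio test among them. Leaving out replicate 1 of control somata gave 1.75 (adjusted p = 0.0262), and leaving out replicate 2 gave 0.66 (adjusted p = 0.463). Process libraries held 8 and 5 reads in control and 10 and 13 after PTX, and a change of Pcsk1 in processes was not detectable at this depth (log2 fold change 0.72, 95% interval -0.65 to 2.09).

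Pcsk2, the convertase that makes many of the small brain neuropeptides, was measured at 77.0 and 76.7 CPM in control somata and at 97.5 and 108 CPM after PTX. The difference of 0.42 ± 0.11 on the log2 scale missed the threshold (adjusted p = 0.0779, quasi-likelihood test) and passed it with the replicate block (adjusted p = 0.00161). It was called in 4 of 9 alternative settings, the study's likelihood ratio test among them. In processes Pcsk2 was at 29.8 and 32.3 CPM in control and at 28.4 and 34.6 CPM after PTX, with overlapping libraries and a log2 fold change of 0.02 (95% interval -0.27 to 0.31).

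Cpe, the exopeptidase that follows the convertases, received the most reads of the 10 genes. Control somata held 566 and 534 CPM and PTX somata 506 and 565 CPM, a log2 fold change of -0.04 (95% interval -0.42 to 0.34). Control processes held 1449 and 1802 CPM and PTX processes 1113 and 1572 CPM, a log2 fold change of -0.28 (-0.66 to 0.11). PTX and control libraries of Cpe overlapped in both compartments.

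With the replicate number as a block, 5 of the 10 genes were called higher in somata (Vgf, Scg2, Pam, Pcsk1 and Pcsk2), where 7.21% of all tested genes were called higher. In processes the block gave 3 higher and 2 lower (Chga and Scg5), against 5.1% and 6.09% of all tested genes. Counting libraries alone, PTX and control did not overlap for 6 genes in somata, all higher, where 24% of all tested genes were higher without overlap. In processes 4 genes were higher and 2 lower without overlap, against 20.1% and 22.3%.

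**Figure D2:**
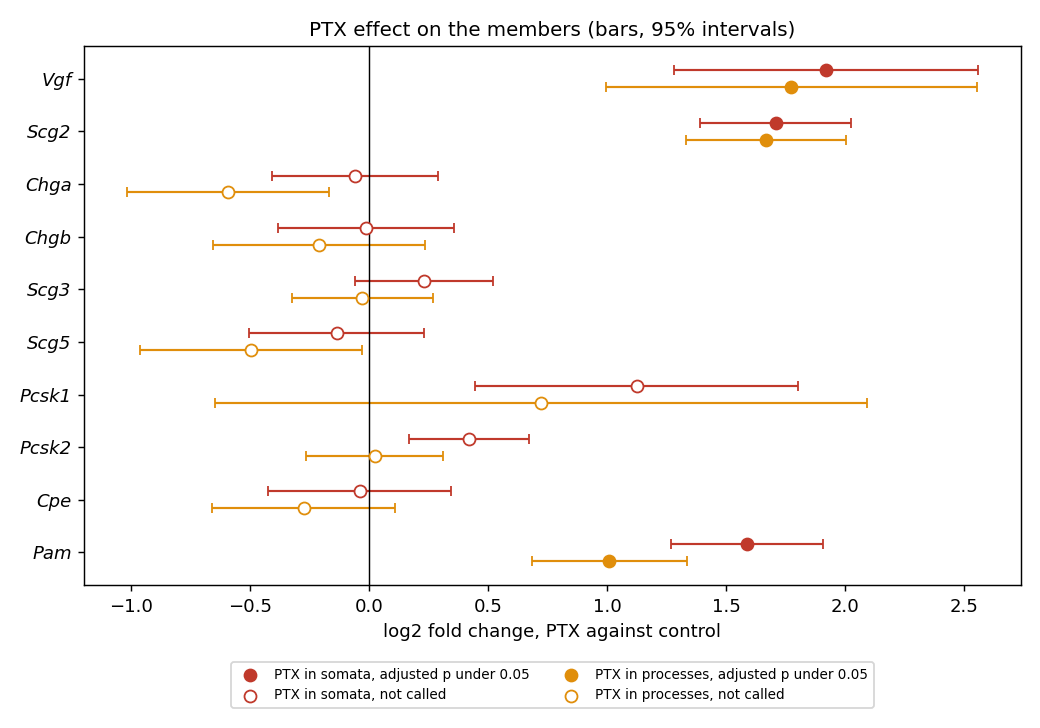
Log2 fold change of PTX against control for the 10 genes in somata (red) and processes (orange), with points for estimates, bars for 95% intervals, filled points for an adjusted p under 0.05 and open points for the rest. Filled points are those of Vgf, Scg2 and Pam, between 1.01 and 1.92, and the interval of Pam in processes lies lower than its point in somata.

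The study asked whether PTX acts differently in the 2 compartments. It tested PTX in each compartment by separate contrasts, and it also used proteomics and, for selected genes, qPCR, single-molecule FISH and puromycin labelling of nascent protein. The interaction (the log2 effect of PTX in processes less the one in somata) tests such a difference directly. With 2 libraries per condition, a gene that does not pass is not thereby shown to respond alike. No gene of the set passed, and neither did any of the 14309 tested genes (0% called by edgeR's quasi-likelihood test), where 572 genes (4%) had an unadjusted p under 0.05. The likelihood ratio test and DESeq2 each called 4 genes and the fit with the replicate block 15 (0.105%), and no gene of the set was among them. Pam had the interaction farthest from 0 in the set, at -0.58 ± 0.20 on the log2 scale (95% interval -1.03 to -0.13, unadjusted p = 0.0166, adjusted p = 1, quasi-likelihood test), since its 3.01-fold rise in somata stood beside a 2.01-fold rise in processes. Pcsk2 followed among those with an unadjusted p under 0.05, at -0.40 (95% interval -0.78 to -0.01). For Scg2 the interaction was -0.04 (95% interval -0.50 to 0.42) and for Vgf -0.14 (-1.16 to 0.87), and these intervals still include differences of some size. Estimates of all 10 genes lay below 0, as did those of 51.7% of all tested genes.

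The second comparison was between the compartments. In control cultures most genes of the set were lower in processes than in somata, and Cpe was the clear exception. There 7 of 10 genes were lower and 2 higher in processes, against 21.9% and 25.8% of all tested genes (47.7% in either direction). In PTX cultures 7 were lower and 1 higher, against 24% and 25.7% (49.8% in either direction). These counts include Pcsk1, which passed the filter through the somata alone. Counted over genes that exceeded 20 reads in 2 or more libraries of each compartment, 6 of 9 were lower and 2 higher in control (21.3% and 30% of the 12127 such genes), and 6 were lower and 1 higher in PTX cultures (22.5% and 29.9%). A log2 fold change beyond 1 in size, with an adjusted p under 0.05, was seen for 5 lower and 1 higher gene in control (7.58% and 11.6% of all tested genes) and for 7 lower and 1 higher in PTX cultures (9.67% and 11.4%). Without Pcsk1 these were 4 lower and 1 higher in control, and 6 lower and 1 higher in PTX cultures. The median over the other 9 genes was -0.92 in control and -1.37 in PTX cultures, whereas over the 12127 genes it was 0.04 and 0.05. These directions are relative to the bulk of genes that TMM sets equal. Scaled by library size alone, with mitochondrial counts included, the median of all genes moved to -1.86 in control and -1.87 in PTX cultures.

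Cpe was 1.56 ± 0.18 higher in processes on the log2 scale in control (2.95-fold, adjusted p = 4.68e-05) and 1.33 ± 0.18 higher in PTX cultures (2.51-fold, adjusted p = 0.000134, quasi-likelihood test), although scaling by library size alone turned it to -0.23 and -0.49. All 4 process libraries lay above all 4 somata libraries. Scg3 was the other gene called higher, by 0.35 ± 0.13 in control (adjusted p = 0.0482), and it turned to -1.45 with scaling by library size alone and to 0.15 (adjusted p = 0.36) with upper quartile scaling. When each library had to hold 10 or more reads, it was 0.28 (adjusted p = 0.0883). Its call was also lost without any 1 of the 4 control libraries or of replicate 1 of PTX processes (0.29 to 0.41, adjusted p = 0.0501 to 0.211). In PTX cultures the value of Scg3 was 0.09 (adjusted p = 0.585), and -1.73 by library size alone. Markers of astrocytes and of neurons went both ways between compartments. Of 6 astrocyte markers in control, Gfap (2.60), S100b (2.16) and Slc1a2 (0.75) were higher in processes on the log2 scale, Slc1a3 was lower (-0.56), and Aldh1l1 (0.43) and Aqp4 (0.08) did not pass. Of 5 general neuron markers, Map2 (2.30), Syn1 (0.73) and Rbfox3 (0.52) were higher in processes, and Tubb3 (-0.57) and Snap25 (-0.37) were lower. The part of astrocyte RNA in the levels of Cpe and Scg3 was not tested.

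Pcsk1 held 49 to 205 reads per somata library and 5 to 13 per process library. It passed the filter on reads through the somata alone, and such a filter favours genes that are lower in processes. Its values (-2.0 on the log2 scale in control and -2.40 in PTX cultures) are therefore a description without a test. Chgb (-1.42 in control), Scg5 (-1.35), Scg2 (-1.32) and Pcsk2 (-1.31) lay close together, with standard errors between 0.12 and 0.19, so that neighbours in this order did not differ beyond their error. Chga (-0.92, adjusted p = 0.00142) and Pam (-0.66, adjusted p = 0.0037, quasi-likelihood test) were lower by less. In PTX cultures these values were -1.62 for Chgb, -1.71 for Scg5, -1.36 for Scg2, -1.70 for Pcsk2, -1.45 for Chga and -1.24 for Pam, all called lower. As a percentage of the somata level, Scg2 in processes was 39.2% and 40.8% in control (replicates 1 and 2) and 34.7% and 43.4% in PTX cultures.

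Vgf was called between compartments in neither condition, although in PTX cultures 5 of 9 alternative settings called it lower. Its process level was 85.2% and 53.8% of the somata level in control and 63.8% and 71.5% in PTX cultures. The difference was -0.43 ± 0.36 in control (adjusted p = 0.34) and -0.58 ± 0.29 in PTX cultures (adjusted p = 0.117, and 0.00195 with the replicate block, quasi-likelihood test). In PTX cultures it was also called with no filter (adjusted p = 0.000913), on the 4 PTX libraries alone (0.0142), with upper quartile scaling (0.0442) and by library size alone (2.65e-06). The last 2 scalings moved the bulk of genes lower in processes. Of all 14309 tested genes, upper quartile scaling called 4768 lower and 2904 higher, and library size alone 13318 lower and 181 higher. Their Vgf calls are therefore not particular to Vgf. Without replicate 2 of control processes the control value was 0.09, and without replicate 1 it was -1.29 (adjusted p = 0.033). The first of these libraries held 28 Vgf reads and the second 77.

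**Figure D3:**
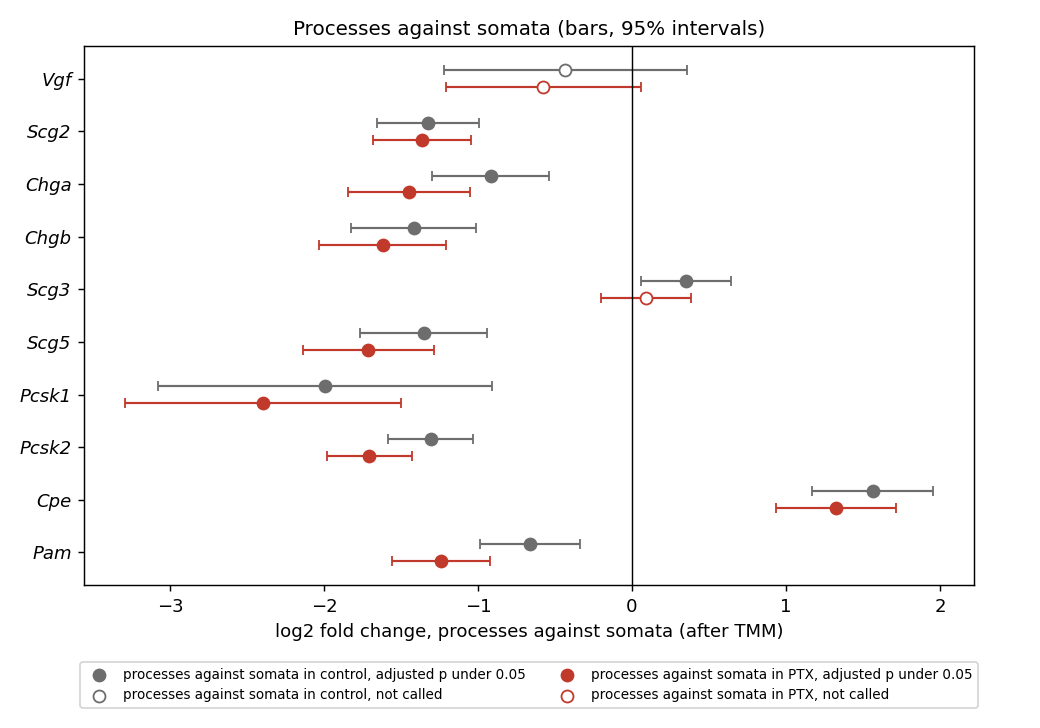
Log2 fold change of processes against somata for the 10 genes in control and in PTX cultures, with points for estimates, bars for 95% intervals and filled points for an adjusted p under 0.05. Cpe lies to the right of 0 in both, at 1.56 and 1.33 (-0.23 and -0.49 when scaled by library size alone), and Pcsk1, with few process reads, is plotted at -2.0 and -2.40.

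The make-up of the set within a library does not depend on the scaling between libraries. Cpe took 48.6% and 50.5% of the counts on the 10 genes in control somata and 30.7% and 34.3% in PTX somata. In processes its share was 79.9% and 84.0% in control and 68.0% and 75.2% after PTX. Cpe thus gave most of the set's counts in each process library and a smaller share in each PTX library than in the controls of the same compartment. A share also falls when other genes of the set rise. The CPM of Cpe overlapped between PTX and control libraries in both compartments, so the smaller share does not show a fall of Cpe.

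Pam held 13.4% and 11.3% of these counts in control somata and 26.3% and 23.9% in PTX somata, and in processes 4.91% and 3.97% in control and 11.6% and 7.72% after PTX. Scg2 held 8.89% and 7.78% in control somata, 19.5% and 17.4% in PTX somata, 2.24% and 1.57% in control processes and 6.82% and 5.94% in PTX processes. For both genes, every PTX library lay above every control library of its compartment. Of all counts outside the mitochondrial genome, the 10 genes took 0.259% to 0.288% in control somata and 0.409% in both PTX somata libraries. In processes they took 0.320% and 0.389% in control and 0.296% and 0.379% after PTX, which overlap.

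**Figure D4:**
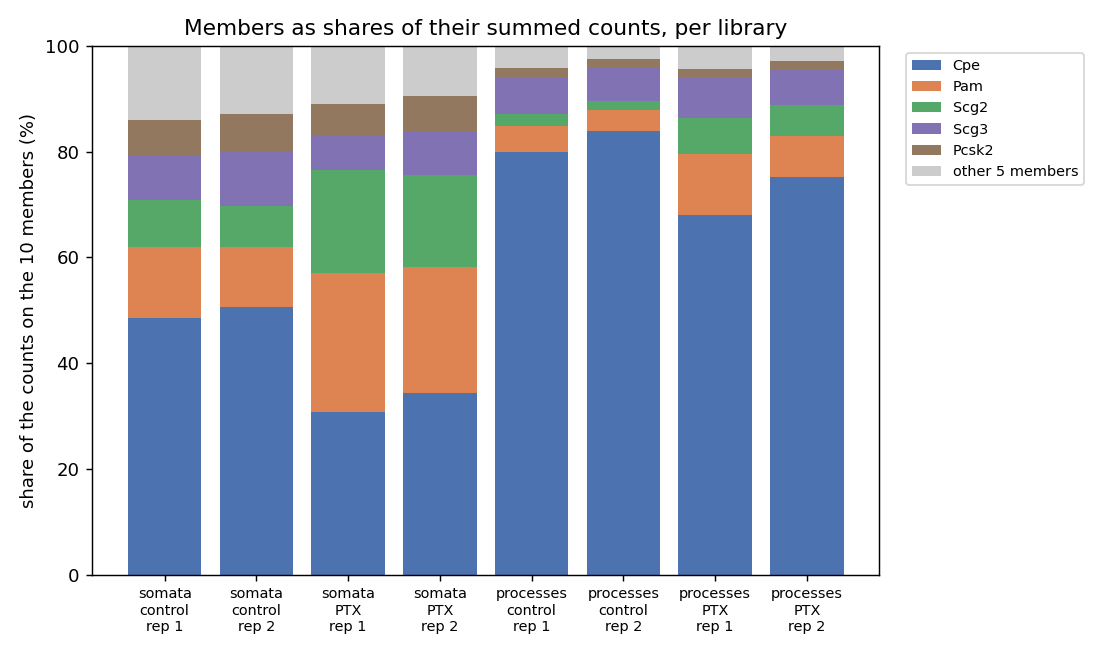
Share of the counts on the 10 genes (%, stacked to 100) taken by Cpe, Pam, Scg2, Scg3, Pcsk2 and the other 5 genes, with 1 bar per library. Cpe takes 30.7% to 50.5% in somata and 68.0% to 84.0% in processes, and the segments of Pam and Scg2 are wider in PTX than in control libraries of the same compartment.

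Some of the peptide precursors on which these enzymes act rose with PTX. Of 18 neuropeptide precursors listed, 13 were tested, and 6 of them were called higher in somata, with none lower, against 2.09% and 1.5% of all tested genes. For 3 of the 13, fewer than 2 control libraries held more than 20 reads, so they passed the filter through PTX libraries. Over the 10 that exceeded 20 reads in at least 2 control and 2 PTX libraries, 4 were higher in somata (1.99% of all such genes) and 1 in processes (1.7%). The libraries of both compartments were counted together here, so the read minimum of the process comparison could be met by somata libraries. Penk, the precursor of the enkephalins, rose from 4.40 ± 1.23 to 26.6 ± 2.90 CPM (n = 2 each) in somata, a log2 fold change of 2.60 (adjusted p = 0.000216). In processes it rose by 2.04 (adjusted p = 0.012, both by the quasi-likelihood test), on 18 and 9 reads in control and 63 and 55 after PTX. Penk was the 1 precursor called in processes, and neither of its control process libraries exceeded 20 reads. Adcyap1, the precursor of PACAP, rose by 1.26 in somata (adjusted p = 0.00425). The median over these 10 precursors was 1.27 in somata and 0.47 in processes. With the replicate block 10 of the 13 precursors were higher in somata and 3 in processes, against 7.21% and 5.1% of all tested genes. The 13 include the 3 that passed the filter through PTX libraries, so these block counts are a description without a test. Between compartments no count is read, since 9 of the 13 precursors did not exceed 20 reads in at least 2 process libraries.

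Among the other convertases and their regulators, 8 were listed and 6 were tested, and Pcsk5, a convertase of the secretory pathway, was the 1 gene called with PTX (in somata 2.09% of all tested genes were called higher), with a rise of 1.05 on the log2 scale in somata (from 15.6 ± 2.0 to 32.3 ± 8.40 CPM, adjusted p = 0.0203). In processes Pcsk5 had a log2 fold change of 0.94 (adjusted p = 0.0909, and 0.000538 with the replicate block). The list's median was 0.18 in somata and 0.31 in processes. With the replicate block 2 of the 6 were higher in somata and 1 in processes, against 7.21% and 5.1% of all tested genes. Pcsk5 (-1.0) and Pcsk7 (-0.83) were lower in processes than in somata in control. Among 11 other enzymes of peptide maturation, 8 were tested and none passed the PTX test in either compartment, with medians of -0.14 and -0.19. With the replicate block 1 of the 8 was lower in somata, where 971 of the 14309 tested genes were. Of the 7 enzymes over 20 reads in both compartments, 6 were lower in processes in control (21.3% of all such genes) and 5 in PTX cultures (22.5%), among them in control the carboxypeptidase Cpd (-1.21), the glutaminyl cyclases Qpct (-1.02) and Qpctl (-0.68), and Cyb561 (-0.71), the cytochrome that supplies electrons for amidation.

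Genes of dense-core vesicle formation, transport and release were mostly not called with PTX. Of 24 listed, 23 were tested, and 1 was higher in somata (2.09% of all tested genes), while 3 were higher and 1 lower in processes (1.64% and 2.1%). With the replicate block 5 were higher and 1 lower in somata, where 1031 and 971 of the 14309 tested genes were. In processes the block also gave 5 higher and 1 lower, where 730 and 871 of all tested genes were. Ptprn, a vesicle membrane protein, rose in both compartments, by 0.89 on the log2 scale in somata (adjusted p = 0.00612) and 0.62 in processes (adjusted p = 0.0381). Rab27b, a small GTPase of vesicle docking, went from 5.67 ± 0.45 to 18.4 ± 4.42 CPM in processes, a rise of 1.70 (adjusted p = 0.00445), and had 0.79 in somata (adjusted p = 0.0692, and 0.00278 with the replicate block). Rph3a, rabphilin, an effector of such GTPases, rose by 1.12 in processes (adjusted p = 0.00302) and had 0.41 in somata (adjusted p = 0.126, and 0.00434 with the replicate block). The interaction of Rph3a was 0.71 (adjusted p = 1, and 0.0386 with the replicate block) and that of Rab27b 0.92 (adjusted p = 1, and 0.288 with the block, all by the quasi-likelihood test). Stx6, a syntaxin of the trans-Golgi network, fell by 0.49 in processes (adjusted p = 0.0296).

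Between compartments, 22 vesicle genes exceeded 20 reads on both sides. Of these, 7 were higher and 5 lower in processes in control, near the shares over all such genes (30% and 21.3%), and 8 were higher and 6 lower in PTX cultures (29.9% and 22.5%). Kif1a, the motor that carries dense-core vesicles, was 1.68 higher in processes on the log2 scale in control, from 452 ± 0.50 CPM in somata to 1450 ± 224 CPM. Sytl5 (1.72) and the calcium sensor Syt7 (0.95) were higher too, whereas Syt4, a synaptotagmin found on dense-core vesicles, was lower (-1.16). As for Cpe and Scg3, these directions are relative to the bulk of genes that TMM sets equal. Scaling by library size alone moved the median of all genes to -1.86 in control, and values of these vesicle genes under that scaling are not given. The median over the 22 was 0.01 in control.

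Markers of other cell types were read beside these results. Of 5 GABAergic interneuron markers, Gad1 (log2 fold change 0.82) and Gad2 (0.92) rose with PTX in somata and Gad2 (0.92) in processes. Slc32a1 (-0.02 and 0.16), Lhx6 (0.07 and 0.45) and Dlx1 (-0.41 and -0.54) were not called in somata or in processes. The summed level of the 5 was 210 to 288 CPM in control somata, 373 to 478 CPM in PTX somata, 128 to 163 CPM in control processes and 207 to 270 CPM in PTX processes, and its part in the rise of Vgf, Scg2, Pam and the precursors was not tested. The 4 markers of excitatory neurons summed to 410 to 426 CPM in control somata and 269 to 284 CPM in PTX somata, and to 721 to 967 CPM and 509 to 510 CPM in processes. Astrocyte markers summed to 2635 to 3648 CPM in PTX somata and 10675 to 11943 CPM in PTX processes, and oligodendrocyte lineage markers to between 146 and 308 CPM over all libraries. Fibroblast and vascular markers summed to 20.1 to 52.1 CPM with the endothelial marker Cldn5 at 0, and endocrine markers to at most 2.56 CPM with Prl at 0. No row carried the symbols of the 3 nuclear-retained RNAs that were looked for.

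Over the 8 libraries, the tested genes with a pattern most like that of Vgf, by Pearson's r of log2 CPM among 10199 genes that averaged 5 CPM or more, were Fbxl21 (r = 0.991), AABR07051069.1 (0.984) and Cds1 (0.982). Within the set, Scg2 and Pam had r = 0.977 and Chga and Scg5 r = 0.989. These values describe 8 libraries that share 4 conditions and 2 compartments of unlike mitochondrial content.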

How the data were processed

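The deposited file used here is a table of whole-number read counts per gene symbol for 8 libraries, made by the authors from ribosome-depleted RNA prepared with a strand-specific kit. The study's methods give trimming with Trimmomatic, alignment with Subread to Rnor_6.0, counting with featureCounts on Ensembl genes and summing to symbols. The submitters' processing notes name STAR, featureCounts and edgeR instead. The strand setting of the counting is not given in the sources used here. The authors' 2 tables of PTX comparisons (log2 fold changes, log2 CPM, likelihood ratios, p-values and FDR) were not used.

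Counts were fitted with edgeR 4.0.16 in R 4.3.3 (TMM, glmQLFit and glmQLFTest) over all 8 libraries with 1 coefficient per condition, after dropping genes that did not exceed 20 reads in 2 or more libraries, a filter taken from the study. All 5 contrasts were adjusted by Benjamini-Hochberg over 14309 genes at 0.05, two-sided. A standard error is the log2 fold change divided by the root of F. With 2 libraries a condition, the biological coefficient of variation was 11.5%, and a tested gene had a median of 268 to 319 reads in somata and 96 to 110 in processes, which limits the precision of low genes. Intervals are 95% intervals from the fit.

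The 10 genes, the gene lists, the markers and the tests were chosen with earlier results of these data known. All 10 genes are named. Of a list, a gene is named where its adjusted p is under 0.05 and its mean at least 5 CPM, at most 4 per contrast by size of fold change. Likeness is given for the gene with the largest PTX effect in each compartment, which was Vgf in both. Marker genes are named where their list is read beside a result. For some named genes, values in other contrasts are given beside the call, and for others they are left out.

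Replicate numbers are shared by all conditions. The differences of replicate 2 minus replicate 1 correlated over genes in every pair of conditions (r = 0.54 for both somata conditions and 0.27 to 0.37 for the other 5 pairs). The numbers were therefore taken to pair the libraries in the block fit, whereas the main fit has no term for them. With the block the biological coefficient of variation was 6.77%. What a number stands for (a culture or a day) is not given in the labels. The fit with the number as a block is given beside a printed value where it changed its call. The alternatives tried were DESeq2 1.42.0, edgeR's likelihood ratio test, scaling by library size, by upper quartile or without mitochondrial genes, no filter, at least 10 reads in every library, fits on the libraries of 1 contrast, the block, and each library left out, where the lone library left is assumed to vary like the other conditions. Counts between compartments, and those of precursors with PTX, were also taken over genes with more than 20 reads in 2 or more libraries on each side, a choice made after seeing the data. For this rule all somata libraries stood against all process libraries, and all control libraries of both compartments against all PTX libraries. The procedure was run on simulated data for PTX in somata only, drawn without a replicate effect. That run does not bear on the process libraries or on the block, and its outcome is not given here.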

Additional observations from a re-analysis of the deposited data

How the results depend on the processing

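Under the alternatives other than leaving out a library, Vgf, Scg2 and Pam were called higher with PTX in both compartments each time. The count of called genes in somata was 3 and became 4 on the 4 somata libraries alone (Pcsk2). It became 5 with the likelihood ratio test, which is the test the study used, with no filter and with the replicate block. Pcsk1 and Pcsk2 were the genes added each time, both higher. In processes it was 3 and became 5 with the replicate block and 4 with no filter (Chga). With the replicate block 2002 genes of all tested were called in somata and 1601 in processes, against 513 and 535 without it. The likelihood ratio test gave 972 and 949, no filter 1141 and 1129, and the 4 process libraries alone 299 in processes. Apart from the calls named in the report and Vgf between compartments in PTX cultures, the block changed no call of the 10 genes. Pcsk1 was removed when each library had to hold 10 or more reads. Signs turned mainly in values near 0 or with scaling by library size alone. In somata that scaling gave 0.0068 for Chga, 0.056 for Chgb and 0.028 for Cpe with PTX, and in processes 0.019 for Scg3. Between compartments it gave -1.45 for Scg3 and -0.23 for Cpe in control, and -1.73 and -0.49 in PTX cultures, where upper quartile scaling gave -0.086 for Scg3. The cause was not tested, beyond the shift of all genes named in the report.

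Leaving out each library in turn turned the sign of these values, given as the lowest and highest over the omissions. With PTX in somata the range was -0.28 to 0.12 for Chga, -0.16 to 0.13 for Chgb and -0.12 to 0.033 for Cpe. With PTX in processes it was -0.51 to 0.16 for Chgb, -0.13 to 0.16 for Pcsk2 and -0.12 to 0.059 for Scg3. Between compartments it was -1.29 to 0.092 for Vgf in control and -0.064 to 0.27 for Scg3 in PTX cultures. The interaction ran from -0.49 to 0.18 for Chgb, from -1.03 to 0.062 for Pcsk1, from -0.21 to 0.13 for Scg2 and from -0.67 to 0.72 for Vgf. None of these turned values was called. The calls lost or gained by an omission are those named in the report for Vgf, Pam, Scg3 and Pcsk1, and the control call of Pcsk1 between compartments, lost without replicate 2 of control processes.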

Other observations

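Replicates differed in the same direction for some of the 10 genes in every condition. Chga, Scg5, Vgf and Pam were lower in replicate 2 than in replicate 1 in all 4 conditions, and Vgf in control processes showed the widest gap, at 8.59 against 3.29 CPM. Scg3 was higher in replicate 2 in all 4 conditions. Coefficients of variation between the 2 libraries ran from 0.295% for Pcsk2 in control somata to 63.1% for Vgf in control processes.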
